A study of Homo sapiens with 12 samples.

Results

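The 10 genes described here carry long-chain fatty acids from outside the cell to the mitochondrial matrix and cleave them there: CD36, LPL, FABP3, CPT1A, CPT1B, SLC25A20, ACADVL, ACADM, HADHA and HADHB. They were taken by gene symbol from a table of 61806 genes, each symbol matched 1 row, and all 10 passed the filter on low counts. The cells were H1, a human embryonic stem cell line of wild type genotype, differentiated toward cardiomyocytes and sampled on Day 12 and Day 16. NP-IWP2 cells were not passaged and received the WNT inhibitor IWP2. The P-DF cells, with the label Pass-ctrl, had a passage on Day 2 followed by spontaneous differentiation. The P-IWP2 cells had the same passage and then received IWP2. No static culture without IWP2 was analysed here. P-IWP2 and NP-IWP2 therefore differ by the passage. P-DF and NP-IWP2 differ by the passage and by IWP2, which cannot be told apart in that comparison. According to the methods, the passage meant replating in new wells at a split ratio, with or without a ROCK inhibitor or insulin. The authors state that the ROCK inhibitor was used in all differentiations after their survival tests, without naming these libraries there. The replating, the split, the ROCK inhibitor and insulin cannot be told apart here. Each of the 6 groups of treatment and day had 2 libraries, numbered 1 and 2 (NP-IWP2), 3 and 4 (P-DF) and 5 and 6 (P-IWP2), and all came from a single cell line. Nothing in the labels says whether the 2 libraries of a group came from separate cultures, so the p-values measure the spread between these libraries, which may be technical.

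The heart takes much of its energy from fatty acids, and the genes of this pathway are known to rise as cardiomyocytes mature and leave glycolysis. Lipoprotein lipase frees fatty acids from triglycerides outside the cell, the receptor CD36 brings them across the membrane and fatty acid binding proteins carry them in the cytosol. Carnitine palmitoyltransferase 1, with a liver isoform (CPT1A) and a muscle isoform (CPT1B), and the carnitine carrier SLC25A20 pass the acyl chains into mitochondria, where chain-length-specific dehydrogenases (ACADVL, ACADM) and the trifunctional protein of HADHA and HADHB shorten them.

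The promoters of FABP3, CPT1A and HADHB are shown because these are the binding protein called between passaged and static cultures, the liver isoform of the shuttle, and the subunit whose start site faces that of its partner. RefSeq promoters (GRCh38.p14) were matched for 8 of the 10 genes, with 14 windows in all; LPL and CPT1B were not among them. Each line is the 250 bases before the start of transcription, 5′ to 3′ on the strand of the gene, with capitals for the GC box GGGCGG on either strand. FABP3 lies at chr1:31373077-31373326 (minus strand), CPT1A at chr11:68844278-68844527 (minus strand) and HADHB at chr2:26244689-26244938 (plus strand). The RefSeq start of each of these genes lies inside the span that the deposited table gives for it.
FABP3: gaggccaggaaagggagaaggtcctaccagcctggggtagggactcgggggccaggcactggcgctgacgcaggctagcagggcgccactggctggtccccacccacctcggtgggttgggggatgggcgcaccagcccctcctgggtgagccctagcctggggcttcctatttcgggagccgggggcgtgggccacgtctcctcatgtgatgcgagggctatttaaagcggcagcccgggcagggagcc
CPT1A: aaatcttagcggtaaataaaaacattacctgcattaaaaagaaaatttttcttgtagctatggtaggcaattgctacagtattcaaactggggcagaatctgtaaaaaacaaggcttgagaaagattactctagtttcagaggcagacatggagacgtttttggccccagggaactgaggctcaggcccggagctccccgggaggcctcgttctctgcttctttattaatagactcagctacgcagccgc
HADHB: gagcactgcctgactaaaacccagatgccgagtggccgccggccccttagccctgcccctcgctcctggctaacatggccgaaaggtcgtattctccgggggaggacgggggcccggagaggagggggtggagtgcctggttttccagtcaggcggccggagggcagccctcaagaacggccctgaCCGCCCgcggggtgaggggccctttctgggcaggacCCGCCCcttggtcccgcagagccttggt

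The HADHB window held 2 GC boxes, and the windows of FABP3 and CPT1A held none. Of 34943 promoter windows of this length, 42.5% held at least 1 GC box. The GC content was 69.2% in both FABP3 and HADHB and 44.4% in CPT1A. HADHA and HADHB are transcribed away from each other from RefSeq starts at 26244632 and 26244939 on chromosome 2, with 306 bases between them. The HADHB window above is therefore also sequence upstream of the RefSeq start of HADHA. The spans that the deposited table gives for HADHA and HADHB overlap. The letters AGGTCA, to which nuclear receptors of the PPAR and ERR families are known to bind, were searched on both strands and were in none of the 14 windows and in 12.1% of all windows. The longer form TCAAGGTCA, which contains those letters, was in 0.321% of all windows and in none of the 14. These are matches of letters in a short window and say nothing about binding.

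The libraries held 14885589 to 19176239 counts, so 3 counts, the limit that a count of 0 allows, stood for 0.156 to 0.202 CPM (counts scaled to the library total). This limit covers counting error only. The Day 12 P-IWP2 library 5 stood apart from its partner: their log2 CPM correlated at 0.917, against 0.9845 to 0.991 within the other groups. Its summed FPKM of 10 cardiomyocyte markers was 2304, where the other Day 12 libraries had 4749 to 5396, and its 6 stromal markers summed to 672.8 FPKM, where library 6 had 31.6 and static Day 12 culture 680.9 to 700.5. Its 6 epicardial markers summed to 139.9 FPKM, against 0.76 in library 6 and 40.2 to 61.1 in static Day 12 culture. These stromal and epicardial sums are near or above those of static culture. The hepatic markers summed to 8.31 to 8.33 FPKM in the Day 12 P-IWP2 libraries, below the static values given next. Whether library 5 matches its label was not tested, and every Day 12 P-IWP2 value below includes it unless stated. In static culture the hepatic markers summed to 430.6 to 596.3 FPKM on Day 12 and 732.1 to 885.2 on Day 16, and in passaged cells to at most 20.1, with HNF4A at 0 counts in every passaged library but the Day 12 P-IWP2 library 5. On Day 16 the cardiomyocyte markers summed to 3105 to 3938 FPKM in NP-IWP2, 7589 to 8268 in P-DF and 9740 to 9917 in P-IWP2. Of these 10 markers, 4 were called higher and 1 lower for P-DF, and 3 higher and 1 lower for P-IWP2. On that day the stromal markers summed to 1179 to 1217 FPKM in static and 19.65 to 29.9 in passaged cells, with 5 of 6 called lower for P-DF and 6 of 6 for P-IWP2. The epicardial markers summed to 69.55 to 99.2 and to 0.3 to 0.84 FPKM, with 6 of 6 called lower in both comparisons. In bulk RNA, fewer cells of a type and less RNA per cell cannot be told apart, and the part of these other cells in the results below was not tested.

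Levels are given in FPKM (counts scaled to the exon length and the library total). Fold changes come from edgeR's quasi-likelihood test with TMM scaling, ± the standard error, with p adjusted over all 19505 genes tested and a threshold of 0.05. The scales differ on Day 16: with library totals in place of TMM, the median log2 fold change of all genes moved from -0.015 to -0.248 for P-DF and from -0.03 to -0.308 for P-IWP2 against NP-IWP2. A gene with equal FPKM in passaged and static cells on Day 16 therefore had a TMM fold change above 0.

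FABP3, the heart-type fatty acid binding protein, was about 4-fold higher on Day 16 in both P-IWP2 and P-DF than in static NP-IWP2 cells, and was the only member called in either comparison of passaged with static cells. Of all genes tested, 15.3% were called for P-DF and 17.1% for P-IWP2. CD36 in P-DF, and HADHB (higher) and CPT1A (lower) in P-IWP2, had an adjusted p of 0.0511, 0.0511 and 0.051 and were not called. The median log2 fold change of the 10 members was 0.37 for P-DF and 0.43 for P-IWP2, where the medians of all genes were -0.015 and -0.03. Both comparisons used the same NP-IWP2 libraries.

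**Figure D1:**
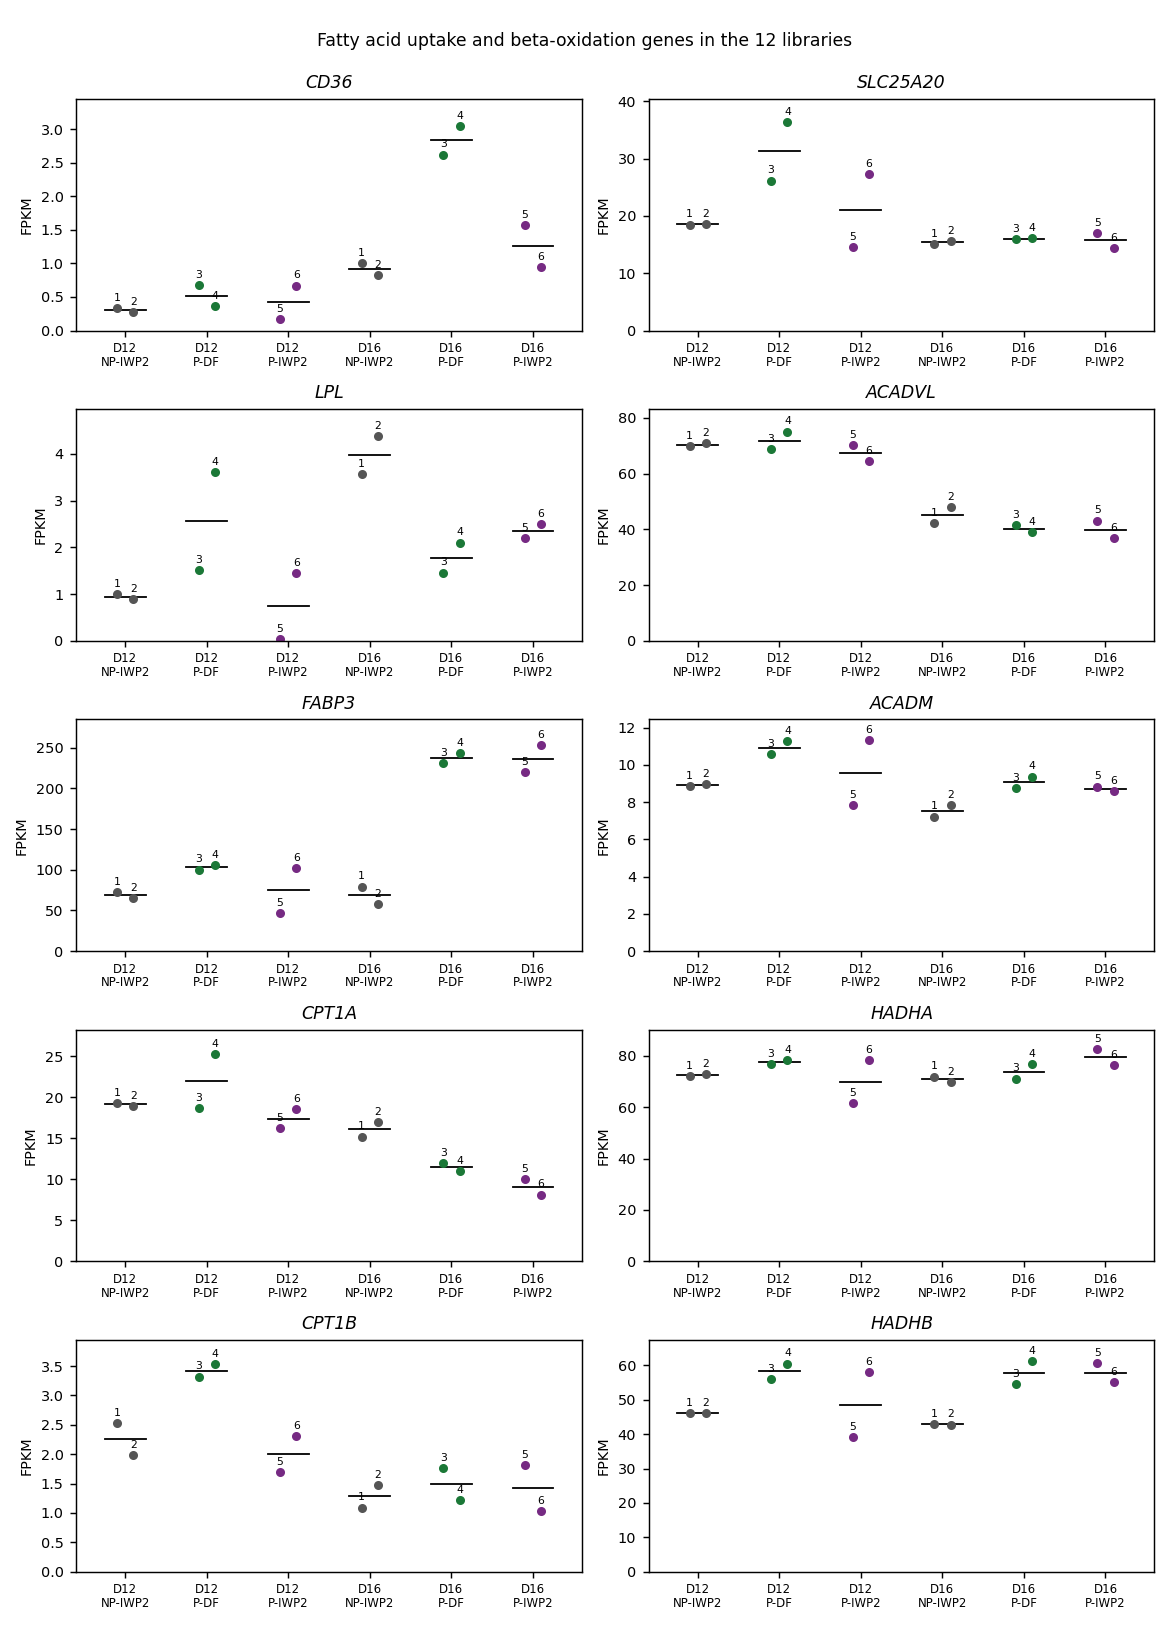
FPKM of the 10 genes in each of the 12 libraries (points, numbered by replicate, D12 for Day 12 and D16 for Day 16; grey NP-IWP2, green P-DF, purple P-IWP2), with the mean of each group of 2 as a line and every axis starting at 0. FABP3 lay between 219.73 and 253.43 FPKM in the 4 passaged Day 16 libraries and at 105.98 or below in the other 8.

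Among the genes of uptake and binding, FABP3 (ENSG00000121769, chr1:31365253-31376850, minus strand) had the highest FPKM of the members in the 4 passaged Day 16 libraries. On Day 16 its FPKM was 79.22 and 57.85 in NP-IWP2, 231.01 and 243.05 in P-DF, and 219.73 and 253.43 in P-IWP2. On Day 12 it was 72.15 and 65.28 in NP-IWP2, 100.19 and 105.98 in P-DF, and 46.71 and 102.45 in P-IWP2. All 4 passaged Day 16 libraries lay above every other library, P-DF lay above NP-IWP2 on Day 12 too, and the Day 12 P-IWP2 pair straddled the static one. The Day 16 log2 fold change against NP-IWP2 was 2.01 ± 0.37 for P-DF (adjusted p = 0.00847), a 4.03-fold difference, and 2.06 ± 0.37 for P-IWP2 (adjusted p = 0.00722), a 4.17-fold difference. The call rests on few libraries: for P-DF, FABP3 had an adjusted p of 0.0831 without NP-IWP2 library 2 of Day 16, 0.0502 without P-DF library 3 and 0.0651 without P-DF library 4 of that day. For P-IWP2 it was 0.0778 without that NP-IWP2 library and 0.0505 without P-IWP2 library 6 of Day 16, while the log2 fold changes of FABP3 stayed between 1.75 and 2.38 in all these fits.

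With time, FABP3 rose from Day 12 to Day 16 by 1.46 ± 0.37 on the log2 scale in P-DF (adjusted p = 0.0309) and, in P-IWP2, by 2.04 ± 0.37 (adjusted p = 0.0062). Without the Day 12 P-IWP2 library 5, FABP3 rose by 1.52 in P-IWP2. In static culture its mean FPKM was 68.7 ± 4.86 on Day 12 and 68.5 ± 15.1 on Day 16 (SD, n = 2). The test of whether the difference from NP-IWP2 changed between the days gave 1.34 ± 0.51 for P-DF (adjusted p = 0.317) and 1.92 ± 0.51 for P-IWP2 (adjusted p = 0.0847), so neither difference between days passed. Over all genes, 0.482% and 1.84% were called in these tests, and no member was. An unadjusted p under 0.05 was found for 2 and 1 members and for 2425 and 4080 of all genes tested. DESeq2 called 0 and 1 members, with 3.27% and 8.45% of all genes.

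CD36 (ENSG00000135218, chr7:80369575-80679277), the membrane receptor for long-chain fatty acids, was a low-abundance transcript that was highest in P-DF on Day 16. Its Day 12 FPKM was 0.34 and 0.28 in NP-IWP2, 0.68 and 0.36 in P-DF, and 0.17 and 0.67 in P-IWP2. The Day 16 values were 1.00 and 0.82 in NP-IWP2, 2.62 and 3.05 in P-DF, and 1.57 and 0.94 in P-IWP2. The P-DF pair lay above all other libraries, whereas the Day 16 P-IWP2 pair overlapped static culture. CD36 rose from Day 12 to Day 16 in P-DF, by 2.70 ± 0.58 on the log2 scale (adjusted p = 0.0174), and in P-IWP2, by 1.91 ± 0.57 (adjusted p = 0.0369), or by 1.19 without the Day 12 P-IWP2 library 5 (adjusted p = 0.0242). In static culture the value was 1.69 ± 0.58 (adjusted p = 0.158). Against static cells on Day 16 the log2 fold change of CD36 was 1.86 ± 0.55 in P-DF (adjusted p = 0.0511) and 0.72 ± 0.54 in P-IWP2 (adjusted p = 0.388). CD36 is also a marker of adipocytes, macrophages and megakaryocytes. The summed FPKM was at most 0.1 for the adipocyte markers, 0.43 for the macrophage markers and 0.41 for the megakaryocyte markers in any library. Endothelial markers were present, with sums in P-DF of 162.7 to 226.2 FPKM on Day 12 and 14.8 to 16.9 on Day 16. The Day 12 sums in NP-IWP2 were 183 to 201.8 FPKM, but the sums did not follow the set of 6 markers. In P-DF against NP-IWP2 on Day 12, 3 of the 6 were called lower, with 4.01% of all genes called. Only 1 had a log2 fold change above 0, and the median was -5.93. The cell source of CD36 was not tested.

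LPL (ENSG00000175445, chr8:19901717-19967259), lipoprotein lipase, differed widely between the 2 libraries of each passaged Day 12 group. Its Day 12 FPKM was 1.00 and 0.89 in NP-IWP2, 1.51 and 3.60 in P-DF, and 0.03 and 1.45 in P-IWP2, where the lowest value was 2 counts. Day 16 values were 3.57 and 4.37 in NP-IWP2, 1.46 and 2.10 in P-DF, and 2.20 and 2.50 in P-IWP2. The static Day 16 libraries lay above all 4 passaged libraries of that day, as they did for CPT1A, whereas on Day 12 the static pair lay below P-DF. The log2 fold change of LPL for P-DF was 1.51 ± 0.93 on Day 12 (adjusted p = 0.377) and -0.92 ± 0.90 on Day 16 (adjusted p = 0.521), and for P-IWP2 on Day 16 it was -0.47 ± 0.885 (adjusted p = 0.747). None of these passed. GPIHBP1, which holds the lipase on endothelial cells, had 0 counts in all 12 libraries, and the endothelial markers summed to 53.6 and 54.1 FPKM in static culture and 12.2 to 16.9 in passaged cells on Day 16.

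Of the carnitine shuttle, CPT1A (ENSG00000110090, chr11:68754620-68844410, minus strand), the liver isoform, fell between the days in passaged cells. On Day 12 its FPKM was 19.31 and 18.97 in NP-IWP2, 18.69 and 25.30 in P-DF, and 16.20 and 18.52 in P-IWP2. Its Day 16 FPKM was 15.20 and 16.96 in NP-IWP2, 11.94 and 11.02 in P-DF, and 10 and 8.12 in P-IWP2. The 4 passaged Day 16 libraries lay below all others, with P-IWP2 below P-DF. With time CPT1A decreased by 0.68 on the log2 scale for P-DF (SE 0.17, adjusted p = 0.0299) and decreased by 0.54 for P-IWP2 (SE 0.17, adjusted p = 0.0406). Against static cells on Day 16 the log2 fold change was -0.25 ± 0.17 in P-DF (adjusted p = 0.335) and -0.55 ± 0.17 in P-IWP2 (adjusted p = 0.051). With library totals in place of TMM, CPT1A was called in P-IWP2, with a log2 fold change of -0.83 and an adjusted p of 0.00951.

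CPT1B (ENSG00000205560, chr22:50568861-50578465, minus strand), the muscle isoform, was lower than CPT1A in every library on the FPKM scale. On Day 12 its FPKM was 2.53 and 1.98 in NP-IWP2, 3.32 and 3.53 in P-DF, and 1.70 and 2.31 in P-IWP2. The Day 16 FPKM was 1.09 and 1.47 in NP-IWP2, 1.76 and 1.22 in P-DF, and 1.82 and 1.03 in P-IWP2. P-DF lay highest on Day 12, and the 3 groups overlapped on Day 16. CPT1B in P-DF changed by -0.95 ± 0.32 on the log2 scale between the days (adjusted p = 0.0785) and was not called. CPT1B shares 66.4% of its exon bases with the readthrough transcript CHKB-CPT1B on the same strand, so its counts depend on how shared reads were assigned, which is not given in the sources used here.

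The ratio of CPT1B to CPT1A within a library does not depend on the scaling between libraries. On Day 16 it was 0.0717 and 0.0867 in NP-IWP2, 0.147 and 0.111 in P-DF, and 0.182 and 0.127 in P-IWP2. On Day 12 it was 0.131 and 0.104 in NP-IWP2, 0.178 and 0.14 in P-DF, and 0.105 and 0.125 in P-IWP2. On Day 16 the muscle isoform thus held a larger share in all 4 passaged libraries than in both static ones, and CPT1A remained the main isoform throughout. If CPT1B reads were countable only on its 1380 unshared exon bases, each ratio would be 2.97 times higher, 0.213 to 0.541 over the 12 libraries, in the same order. The ratio is a description without a test. CPT1C, the brain isoform, had 0.39 to 2.16 FPKM on Day 16 and was not called in either passaging comparison on that day.

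**Figure D2:**
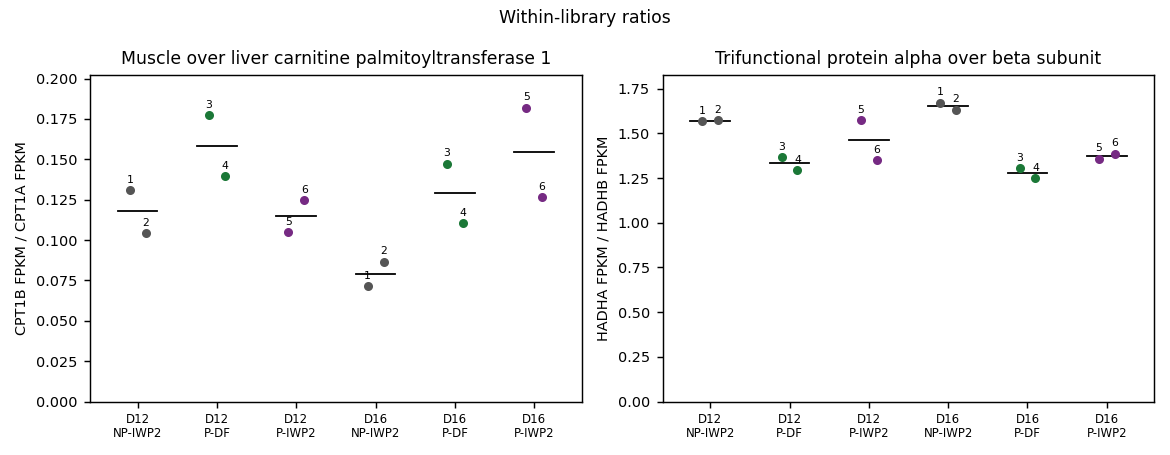
Ratio of CPT1B to CPT1A FPKM (left) and of HADHA to HADHB FPKM (right) in each of the 12 libraries (points numbered by replicate, lines for the mean of 2, axes from 0; grey NP-IWP2, green P-DF, purple P-IWP2). On Day 16 the static pair lay lowest on the left, at 0.0717 and 0.0867, and highest on the right, at 1.67 and 1.63.

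SLC25A20 (ENSG00000178537, chr3:48856926-48898904, minus strand), the carnitine and acylcarnitine carrier of the inner membrane, had its highest group mean in P-DF on Day 12. On Day 12 its FPKM was 18.50 and 18.54 in NP-IWP2, 26.16 and 36.32 in P-DF, and 14.56 and 27.34 in P-IWP2. On Day 16 the values were 15.11 and 15.67 in NP-IWP2, 15.94 and 16.06 in P-DF, and 17.02 and 14.42 in P-IWP2, and the P-IWP2 pair spanned both others. Scaled by TMM, its Day 16 FPKM was 14.7 and 15.3 in static and 17.7 to 19.3 in passaged libraries, and the log2 fold change of SLC25A20 against static cells was 0.29 ± 0.296 for P-DF (adjusted p = 0.545) and 0.30 ± 0.296 for P-IWP2 (adjusted p = 0.506). The Day 12 P-DF pair lay above the static pair with a SLC25A20 log2 fold change of 0.84 ± 0.295 (adjusted p = 0.143), and the P-DF change to Day 16 was -0.71 ± 0.295 (adjusted p = 0.144); neither passed.

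Among the matrix enzymes, ACADVL (ENSG00000072778, chr17:7217125-7225266), the very long chain acyl-CoA dehydrogenase, fell from Day 12 to Day 16 in all 3 treatments. On Day 12 its FPKM was 69.76 and 70.92 in NP-IWP2, 68.67 and 75.02 in P-DF, and 70.16 and 64.46 in P-IWP2. On Day 16 the values were 42.26 and 47.89 in NP-IWP2, 41.46 and 38.87 in P-DF, and 43.09 and 36.73 in P-IWP2. The days did not overlap in any treatment. ACADVL decreased by 0.53 on the log2 scale in NP-IWP2 (SE 0.11, adjusted p = 0.0477), decreased by 0.58 in P-DF (SE 0.11, adjusted p = 0.0114) and decreased by 0.35 in P-IWP2 (SE 0.11, adjusted p = 0.0455). It was the only member called over time in static culture, where 1.98% of all genes were called. On Day 16 its log2 fold change against static cells was 0.07 ± 0.11 in P-DF (adjusted p = 0.717) and 0.10 ± 0.11 in P-IWP2 (adjusted p = 0.561), and with library totals the signs turned, to -0.167 and -0.176.

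ACADM (ENSG00000117054, chr1:75724431-75787575), the medium chain enzyme, had between 7.22 and 11.32 FPKM in the 12 libraries. On Day 12 its FPKM was 8.88 and 8.98 in NP-IWP2, 10.60 and 11.26 in P-DF, and 7.83 and 11.32 in P-IWP2. On Day 16 it was 7.22 and 7.85 in NP-IWP2, 8.75 and 9.37 in P-DF, and 8.83 and 8.61 in P-IWP2. Passaged libraries lay above static ones on Day 16, with log2 fold changes of 0.50 ± 0.20 in P-DF and 0.49 ± 0.20 in P-IWP2 (adjusted p = 0.12 in each), below the threshold of a call. ACADM shares 11.0% of its exon bases with DLSTP1 and RABGGTB.

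HADHA (ENSG00000084754, chr2:26190635-26244672, minus strand) and HADHB (ENSG00000138029, chr2:26243170-26290465), the alpha and beta subunits of the trifunctional protein, were among the most abundant members. HADHA had FPKM of 72.08 and 72.75 in NP-IWP2, 76.78 and 78.43 in P-DF, and 61.59 and 78.29 in P-IWP2 on Day 12. On Day 16 HADHA had 71.90 and 69.80 in NP-IWP2, 71.07 and 76.62 in P-DF, and 82.45 and 76.48 in P-IWP2. The static and P-DF pairs of HADHA overlapped on Day 16, and the P-IWP2 pair lay above the static one. HADHB had FPKM of 46.03 and 46.23 in NP-IWP2, 56.07 and 60.57 in P-DF, and 39.14 and 58.08 in P-IWP2 on Day 12. On Day 16 HADHB had 42.99 and 42.78 in NP-IWP2, 54.51 and 61.34 in P-DF, and 60.66 and 55.18 in P-IWP2, so both passaged pairs lay above the static one. The log2 fold change of HADHB on Day 16 was 0.66 ± 0.215 for P-DF (adjusted p = 0.0667) and 0.71 ± 0.215 for P-IWP2 (adjusted p = 0.0511), and that of HADHA was 0.29 ± 0.17 (adjusted p = 0.287) and 0.44 ± 0.17 (adjusted p = 0.111). HADHA rose between the days in P-IWP2 by 0.58 ± 0.17 on the log2 scale (adjusted p = 0.0383), but by 0.18 with library totals and by 0.32 without the Day 12 P-IWP2 library 5 (adjusted p = 0.284 and 0.0817).

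The pair whose RefSeq starts lie 306 bases apart therefore did not keep a fixed ratio. The HADHA to HADHB ratio of FPKM was 1.57 in both NP-IWP2 libraries, 1.37 and 1.29 in P-DF, and 1.57 and 1.35 in P-IWP2 on Day 12. On Day 16 it was 1.67 and 1.63 in NP-IWP2, 1.30 and 1.25 in P-DF, and 1.36 and 1.39 in P-IWP2. It was higher in every static library than in the passaged libraries of the same day, except for the Day 12 P-IWP2 library 5, which had the static value.

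**Figure D3:**
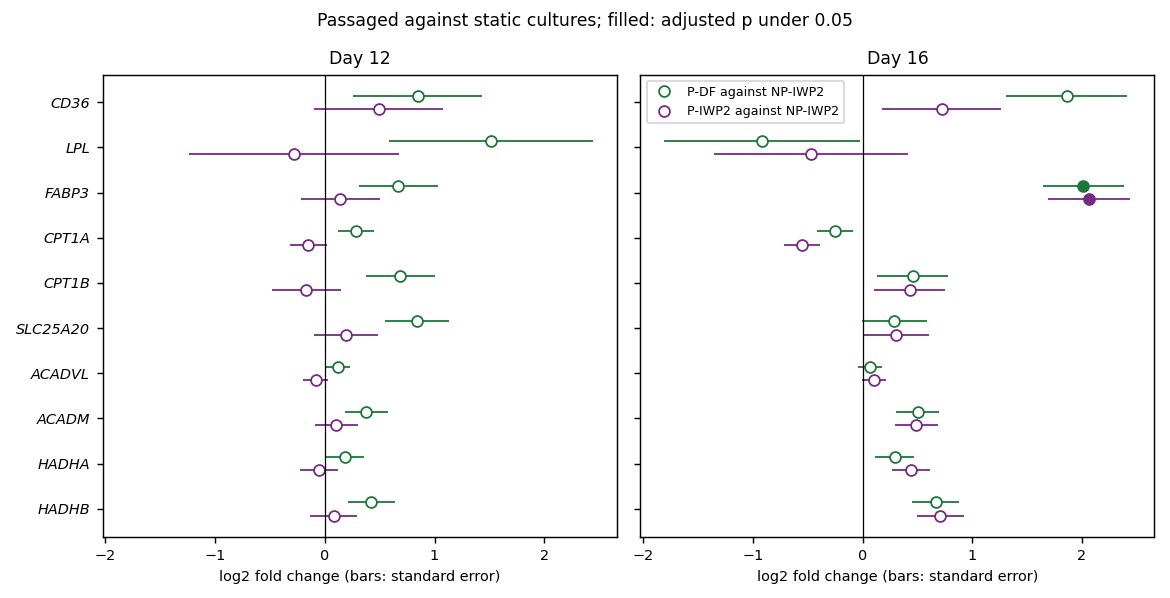
Log2 fold changes of the 10 genes for P-DF (green) and P-IWP2 (purple) against NP-IWP2 on Day 12 (left) and Day 16 (right), with bars of 1 standard error and filled points for an adjusted p under 0.05. FABP3 on Day 16 carries the only filled points, at 2.01 and 2.06.

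On Day 12 no member passed the test against static cells by edgeR, DESeq2 or limma, where edgeR called 4.01% of all genes for P-DF and 1.66% for P-IWP2. For P-DF, 1 member had an unadjusted p under 0.05, as did 4229 of the 19505 genes tested. Of the 10 cardiomyocyte markers, 9 had log2 fold changes above 0, with a median of 0.47. All 10 members had log2 fold changes above 0, with a median of 0.55 against -0.004 for all genes. Those not given above were 0.85 ± 0.59 for CD36, 0.67 ± 0.36 for FABP3, 0.29 ± 0.17 for CPT1A, 0.69 ± 0.31 for CPT1B, 0.12 ± 0.11 for ACADVL, 0.38 ± 0.20 for ACADM, 0.19 ± 0.17 for HADHA and 0.43 ± 0.21 for HADHB. For P-IWP2 no member had an unadjusted p under 0.05, against 2243 of all genes tested, and the values ran from -0.28 (LPL) to 0.49 (CD36). The Day 12 P-IWP2 library 5 had the lowest FPKM of the 6 Day 12 libraries for 9 of the 10 members, all but ACADVL, and for 19.2% of all genes tested.

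Without that library the number of calls rose in most comparisons, among the members as among all genes. Exceptions were P-IWP2 over time, where 5 members were called in both fits and the share of all genes went from 27.0% to 23.7%, and P-IWP2 against P-DF on Day 12, which kept 0 members and 0% of all genes. In comparisons that do not use Day 12 P-IWP2, the calls arose from almost the same fold changes, since the spread of that pair no longer entered the model. Without it, 5 members were called for P-DF on Day 12, with 21.9% of all genes called: LPL, FABP3, SLC25A20, ACADM and HADHB were higher, by 1.51, 0.67, 0.835, 0.37 and 0.42 on the log2 scale. For P-IWP2 on Day 12, then a single library, 5 members were called (15.0% of all genes): CD36, FABP3, SLC25A20, ACADM and HADHB, at 1.21, 0.66, 0.65, 0.43 and 0.42. On Day 16, 6 members were called for P-DF (32.4% of all genes): CD36, FABP3, ACADM, HADHA and HADHB higher, and LPL lower at -0.92. For P-IWP2 on Day 16 there were 5 (34.8% of all genes): FABP3, ACADM, HADHA and HADHB higher, and CPT1A lower at -0.55 with an adjusted p of 0.00395. These fits assume that the lone Day 12 P-IWP2 library varies like the others.

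Over time, 4 members were called in P-DF, where 13.6% of all genes were called, and 5 in P-IWP2, where 27.0% were. CD36 and FABP3 rose and CPT1A and ACADVL fell in both, and HADHA rose in P-IWP2. In P-DF fewer members, or none, were called without any single P-DF library or either Day 12 NP-IWP2 library. In P-IWP2 fewer members were called without any single Day 16 library, either Day 12 NP-IWP2 library or either Day 12 P-DF library. The share of all genes called also fell in each of these fits. Without the Day 12 P-IWP2 library 5, 6 members were called in P-DF (29.2% of all genes), with CPT1B and SLC25A20 also lower, and 5 in P-IWP2 (23.7% of all genes), with SLC25A20 lower in place of the rise of HADHA. In static culture the ACADVL call was lost in every fit that left out a library other than Day 12 P-IWP2 library 5 or 6. The share of all genes called fell in those fits too. Without the Day 12 P-IWP2 library 5, the static log2 fold changes were 1.69 for CD36, 2.17 for LPL and -0.53 for ACADVL. The tests of the change in the difference from NP-IWP2 then called LPL, at -2.43, and FABP3, at 1.34, for P-DF (7.62% of all genes) and FABP3, at 1.40, for P-IWP2 (7.89% of all genes).

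Adding IWP2 to passaged cells made no difference that passed the test for any member on either day. P-IWP2 against P-DF had 0% of all genes called on both days by edgeR, with 2061 genes at an unadjusted p under 0.05 on Day 12 and 1567 on Day 16; 2 members, CPT1A and CPT1B, were among the former and none among the latter. DESeq2 and limma called no member either. DESeq2 called 1% of all genes on Day 12 and 0.68% on Day 16, and limma 0% and 0.00513%. Without the filter, edgeR called 2 members on Day 12 (4.18% of all genes) and 1 on Day 16 (1.6%). With only the groups compared it called 1 on Day 16 (1.56%). Without the Day 12 P-IWP2 library 6, 9 members were called lower in P-IWP2 than in P-DF on Day 12, all but ACADVL, as were 29.2% of all genes in either direction; that group was then library 5 alone. On Day 16 the CD36 log2 fold change of P-IWP2 against P-DF was -1.14 ± 0.54 (adjusted p = 0.644), and without the Day 12 P-IWP2 library 5 it was called with an adjusted p of 0.0331 (2.49% of all genes).

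The other genes of fatty acid handling described here were 44, of which 40 were tested. On Day 16, 6 of them were called for P-DF (2 higher and 4 lower) and 7 for P-IWP2 (4 higher and 3 lower), with median log2 fold changes of 0.22 and 0.32. The background was 15.3% and 17.1% of all genes, so these counts were near it. With TMM scaling all 12 other matrix enzymes and electron carriers had values above 0 in both comparisons, with medians of 0.42 and 0.55, whereas with library totals 9 did for P-DF (not ACAD9, ACAA2 and ECI2) and 10 for P-IWP2 (not ACAD9 and ECI2), with medians of 0.18 and 0.28; this alternative was chosen after seeing the data. ACADL, the long chain acyl-CoA dehydrogenase, was higher in both, by 1.82 ± 0.44 and 1.48 ± 0.44 on the log2 scale, from 0.27 ± 0.127 FPKM in static culture to 0.825 ± 0.149 in P-DF and 0.63 ± 0.0707 in P-IWP2 (SD, n = 2). ACADS, the short chain enzyme, and ETFA, a subunit of the flavoprotein that takes up their electrons, were called in P-IWP2, at 1.01 ± 0.29 and 0.88 ± 0.23. With library totals ACADL and ACADS were not called in P-IWP2, with an adjusted p of 0.0599 and 0.0636.

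Outside the matrix, ACACB, whose product makes the malonyl-CoA that inhibits carnitine palmitoyltransferase 1, was called in P-DF at 1.02 ± 0.29, and ACSL3, an acyl-CoA synthetase, in P-IWP2 at 0.49 ± 0.15. CPT2, the inner membrane partner of CPT1, was not called on Day 16, with values of 0.58 ± 0.23 and 0.62 ± 0.23.

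Several lower genes are ones that liver and gut also use. FABP1, the liver-type binding protein, was called lower in passaged cells on both days: on Day 16 it had 7.31 and 8.09 FPKM in static culture, 314 to 337 counts, and 0 to 2 counts in each of the 4 passaged libraries. It moved in the direction opposite to FABP3. ACSL5, an acyl-CoA synthetase, was lower, with log2 fold changes of -2.26 ± 0.60 for P-DF and -3.71 ± 0.67 for P-IWP2, as was DGAT2, which makes triglycerides, at -1.41 ± 0.25 and -1.62 ± 0.25. ANGPTL4, an inhibitor of lipoprotein lipase, was lower in P-DF at -1.72 ± 0.43. The hepatic markers, 10 of 10 detected in both static libraries of Day 16 and 4 to 7 in the passaged ones, moved with these genes, and their part in the result was not tested. The adipocyte-type FABP4 had at most 1 count in any library, and FABP5 was not called.

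**Figure D4:**
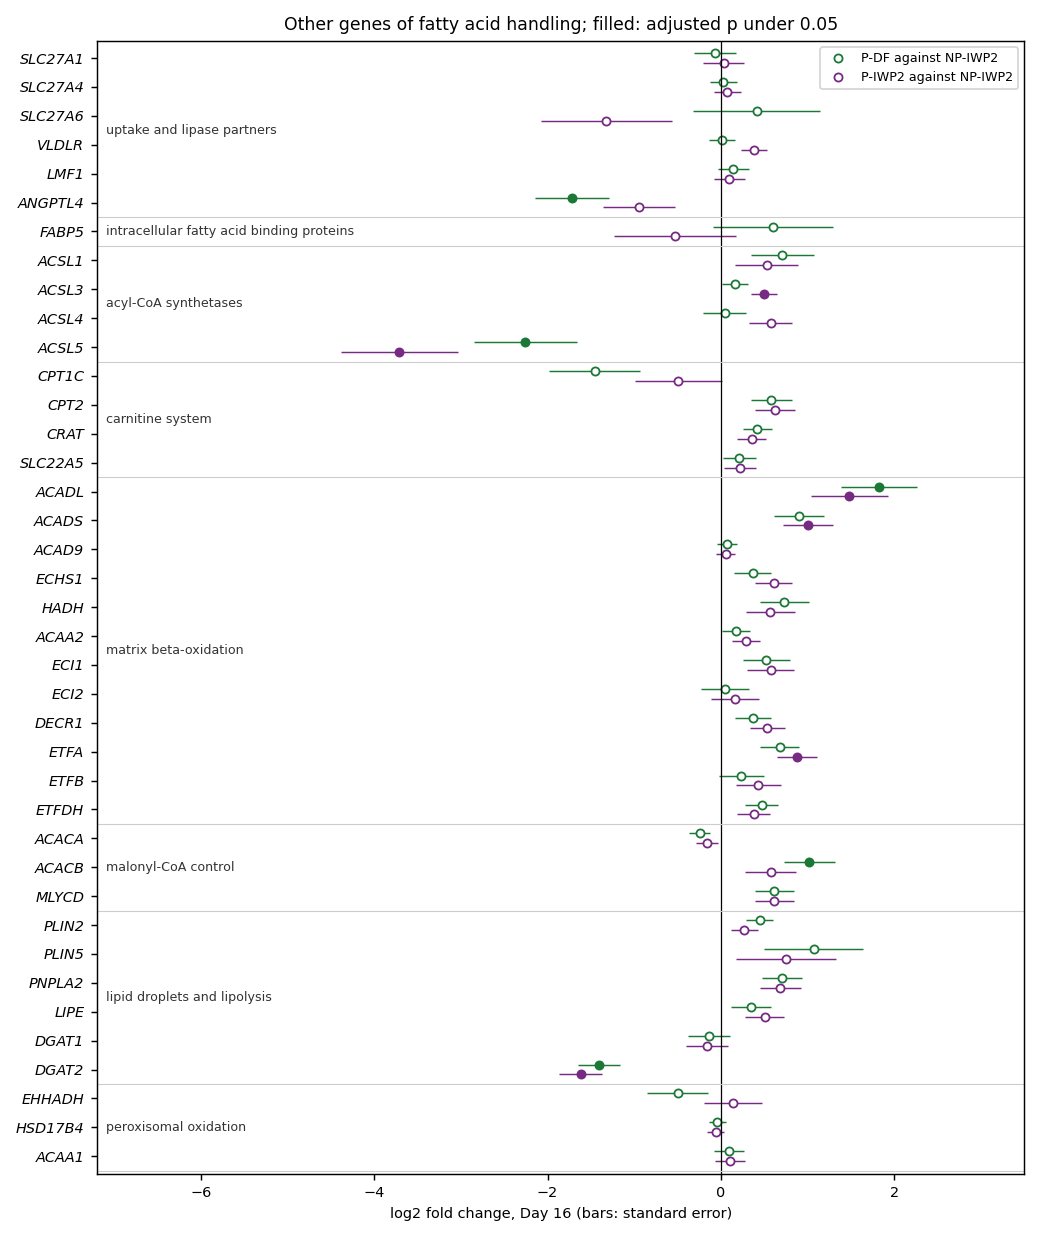
Day 16 log2 fold changes of the other tested genes of fatty acid handling for P-DF (green) and P-IWP2 (purple) against NP-IWP2, grouped by role, with bars of 1 standard error and filled points for an adjusted p under 0.05; FABP1 is left out because passaged libraries had 0 to 2 counts. With TMM scaling the matrix group lies right of 0 in both comparisons (with library totals ACAD9 and ECI2 lie left of 0 in both and ACAA2 in P-DF), and ACSL5 lies farthest left, at -2.26 and -3.71.

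Across the 12 libraries, log2(FPKM + 1) of the members fell into patterns that are given as a description, since the libraries share groups and days. FABP3 correlated with CD36 at 0.80 and with HADHB at 0.79, and with CPT1A at -0.74. CPT1A correlated with ACADVL at 0.87, CPT1B with SLC25A20 at 0.87, SLC25A20 with ACADM at 0.89, and HADHA with HADHB at 0.86. The nearest gene outside the list was CPVL for FABP3 (0.993), TRDN-AS1 for CD36 (0.978), DGKD for ACADVL (0.994), CITED4 for HADHB (0.984), COX10-DT for CPT1A (0.974), FBH1 for SLC25A20 (0.98), EMC10 for CPT1B (0.957), SMPDL3B for HADHA (0.94) and TAB2 for LPL (0.885). For ACADM the 3 nearest were NDUFA5 (0.966), MRPS30 (0.956) and NDUFS3 (0.954); NDUFA5 and NDUFS3 are subunits of respiratory complex I.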

How the data were processed

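RNA-seq libraries were made from H1-derived cells of the 6 groups, 12 in all. Per the labels and methods, the authors trimmed reads with cutadapt 1.9.1, aligned them with HISAT2 2.0.1 to hg38, counted them per gene with HTSeq 0.6.1 and tested with DESeq2; the strand setting, the treatment of shared reads and the annotation release are not given in the sources used here. The deposited table holds raw counts per Ensembl gene and FPKM, which the authors made from the counts, the exon length and the library total. Gene positions matched a GENCODE annotation of GRCh38.

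The 10 genes and the other gene lists were chosen with earlier results of these data known. All 12 libraries entered one model of 6 groups in edgeR 4.0.16 (R 4.3.3) with TMM scaling, filterByExpr (19505 of 61806 genes left), the quasi-likelihood test and Benjamini-Hochberg adjustment over all genes; 20417 genes without a symbol stayed in the table. The standard error is the log2 fold change divided by the square root of F. Named were the 10 members, other genes of the pathway past the threshold in a Day 16 passaging comparison (some listed genes are left out of the counts and the plot and are not reported here), the isoform or partner genes FABP1, FABP4, FABP5, CPT1C, CPT2, ACADL and GPIHBP1, and the genes nearest to each member by Pearson's r. Alternatives were DESeq2 1.42.0 with its own size factors, library totals, no filter, limma 3.58.1 on log2(FPKM + 1), only the groups compared, each library left out and a replicate block. The scripts were tested on simulated data. Figures used matplotlib 3.10.9.

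Replicate numbers are shared by the 2 days of a treatment. The deviations of equal numbers from their group means correlated at 0.075, -0.0015 and -0.031, so equal numbers shared no deviation of expression. With 2 libraries a group, these values cannot show whether equal numbers came from the same culture.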

Additional observations from a re-analysis of the deposited data

How the results depend on the processing

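The number of members called differed between the alternatives, as did the share of all genes called, given in brackets. With DESeq2 it was 3 for P-DF and 3 for P-IWP2 against NP-IWP2 on Day 16 (18.4% and 20.1%). It was also 2 over time in NP-IWP2 (6.79%) and 1 in the interaction of P-IWP2 and day (8.45%). Library totals gave 2 for P-IWP2 against NP-IWP2 on Day 16 (21.3%). With limma on log2(FPKM + 1), 2 were called in each Day 16 comparison with static cells (15.3% and 18%). Without the filter, 4 members were called for P-DF on Day 12 (7.7%). There were 5 in each Day 16 comparison with static cells (11.6% and 12.3%). P-IWP2 against P-DF had 2 on Day 12 (4.18%) and 1 on Day 16 (1.6%). Over time in NP-IWP2 there were 2 (5.07%). The interactions of P-DF and P-IWP2 had 2 and 1 (2.79% and 6.77%). With only the groups compared, the counts for P-DF were 6 on Day 12 (29.8%) and 6 on Day 16 (40.1%). On Day 16, P-IWP2 had 4 against NP-IWP2 (29.2%) and 1 against P-DF (1.56%). Over time there were 4 in NP-IWP2 (28.3%) and 0 in P-IWP2 (0%). The interaction of P-DF and day had 3 (12.6%). The cause was not tested. Where single libraries were left out, the share of all genes called moved too in most comparisons, so the changes in calls were not confined to the members. Those shares are given above for several fits and are not in brackets here. Leaving out single libraries gave 0 to 5 members for P-DF and 0 to 5 for P-IWP2 on Day 12, 0 to 6 and 0 to 5 on Day 16, 0 to 9 and 0 to 1 for P-IWP2 against P-DF, 0 to 3, 0 to 6 and 1 to 7 over time in static, P-DF and P-IWP2 cells, and 0 to 2 and 0 to 7 in the interactions. The higher ends came with a Day 12 P-IWP2 library left out, when the spread of that pair no longer entered the model; 9 members were called for P-IWP2 against P-DF on Day 12 without library 6. Of 1900 single values under an alternative, 1606 kept direction and side of the threshold and 74 changed sign, 71 of them with no call on either side. The signs of ACADVL against static cells on Day 16 turned with library totals (-0.167 and -0.176) and limma (-0.161 and -0.173). Without library 6 of Day 12 P-IWP2, FABP3 was -0.703 for P-IWP2 against NP-IWP2 on Day 12, SLC25A20 was 0.647 over time in P-IWP2 and LPL was 4.519 in the interaction of P-IWP2 and day, and without library 5 these were 0.664, -0.499 and -1.17. SLC25A20 was 0.01 without library 6 of Day 16. The mean CPT1B to CPT1A ratio was 0.126, and 0.373 per unshared exon base, an alternative chosen after seeing the data.

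The replicate number as a block could be fitted for the time comparisons only. With it, 0 members were called in static cells, 3 for P-DF and 2 for P-IWP2, and SLC25A20 in P-IWP2 was 0.057. The shares of all genes called were 0.79%, 9.52% and 23.9%. With 2 libraries a group, members with wide standard errors such as CD36 and LPL could show only large differences. For P-DF against NP-IWP2 on Day 16 these errors were 0.55 for CD36 and 0.90 for LPL, and 0.32 for CPT1B. No paired analysis was possible between treatments on one day because they share no replicate number.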
